A study of Mus musculus with 12 samples.

Results

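The small-subunit processome is the first large assembly on the nascent ribosomal RNA precursor in the nucleolus. It gathers the U3 snoRNA particle and several protein complexes on the 5′ end of the transcript, where the precursor is folded, modified and cut to release the RNA of the small ribosomal subunit. RIOK2, the kinase targeted in the study, is known to act much later, on small-subunit precursors in the cytoplasm. The genes described here are early nucleolar factors, without the RIO kinases and the late cytoplasmic factors, and were chosen by symbol. Of 37 symbols given, 35 had a row of that name among the 24221 rows of the authors' deposited table, and all 35 were among the 13814 genes the authors tested. The remaining Utp4 and Utp11 were listed under the older symbols Cirh1a and Utp11l, as RefSeq synonyms give them, and their values are printed under the current names.

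The cells were mouse acute myeloid leukaemia cells on a C57BL/6 background that express MLL-AF9, a leukaemia fusion oncogene. The comparison is Riok2fl/fl MLL-AF9 cells given hydroxytamoxifen (OHT) for 72 h, with 3 samples, over Riok2fl/fl MLL-AF9 cells given ethanol (EtOH) for 72 h, with 3 samples. Both groups carry the floxed Riok2 alleles and the fusion, and the source of Cre recombinase and the number of clones are not stated in the sources at hand. Another 3 samples received 1 µM of an inhibitor named Riok2i and 3 received DMSO, and neither of these groups was analysed here. The deposited file holds 1 comparison and 0 columns of values per sample, so no value can be shown for single samples.

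The base mean, a read count divided by a library size factor and averaged over libraries, came to 20307732 in sum in the authors' deposited table. The value of 1 read, seen in genes with a read in 1 library alone, gave 6 library size factors, 1.88, 1.01 and 0.697 on the OHT side and 1.11, 0.870 and 0.783 on the EtOH side. Riok2, the targeted gene, fell by 3.60 ± 0.20 on the log2 scale (SE, DESeq2 adjusted p = 7.81e-69), as listed in the authors' deposited table, which puts OHT at 8.25% of EtOH (95% interval 6.28 to 10.8%). The table does not name its numerator, and the reading of all folds as OHT over EtOH rests on this fall. Whether the replicates were grown apart is not stated, so the errors may reflect technical spread alone. Of the leukaemic progenitor markers, Ptprc, Spi1, Mpo, Elane, Hoxa9 and Meis1 had base means between 1648 and 52333 in the authors' deposited table. Cd34 and Flt3 of the same list were lower, at 321 and 59.6. Cd3e, Cd8a and Ms4a1 of lymphocytes and Hbb-bt and Hba-a1 of red cells were at 0. Other markers on the lists of other cells were not at 0. Among them were Pecam1 at 1579, Itga2b at 1053, Pf4 at 101, Cd3d at 16.0 and Cd79a at 9.49.

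Transcripts of the early processome fell in OHT as a group. Of the 35 factors, 34 fell and 0 rose at an adjusted p under 0.05 in the authors' deposited table, where 23.4% of all genes tested were called lower, 25.5% higher and 48.9% in either direction. Over the 9888 genes at a base mean of 100 or more, a level that all of the factors reach, 30.6% were called lower with p-values adjusted over those genes. The median log2 fold change of the factors was -0.88 in the authors' deposited table, beside 0.05 over all genes tested and -0.02 over genes at a base mean of 100 or more. The folds ranged from -1.45 for Wdr43 to -0.23 for Heatr1, the 1 factor that did not pass. With Utp4 and Utp11 the count was 36 lower of 37. Under stricter rules 31 of 35 were lower at a threshold of 0.01 (19.1% of all genes), 29 with the Benjamini-Yekutieli adjustment (17.7%), 21 with the Bonferroni adjustment (9.67%) and 15 when tested against a log2 change of 0.5 (6.67%). The count stayed at 34 among genes with an SE of 0.5 or less (29.2% lower), with folds centred on the median of all genes (25.2%) and with folds centred on the median of genes at a base mean of 100 or more (22.6%).

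The size of the falls differed among the factors. A log2 fold change below -1 was listed for 13 factors, one between -1 and -0.5 for 16 and one above -0.5 for 6 in the authors' deposited table, while 8.01% of genes at a base mean of 100 or more had a fold below -1. The standard deviation of the folds over the 35 factors was 0.32 on the log2 scale, against a median SE of 0.15. The 95% interval lay wholly below the median of the factors for 4 of them and wholly above it for 9. Ranked among the genes at a base mean of 100 or more, 28 factors were in the lowest 25 percent of folds and 7 were not.

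**Figure D1:**
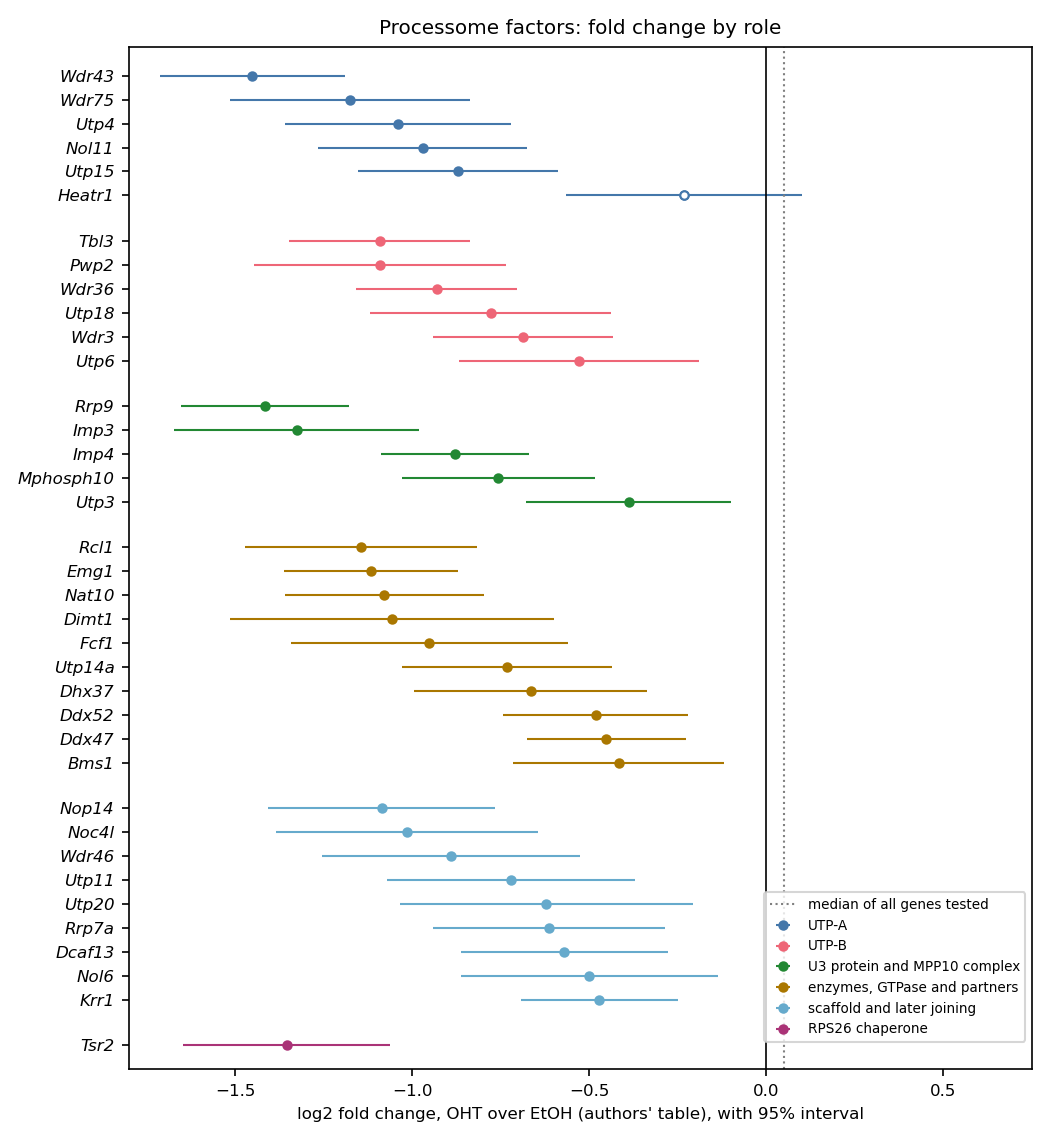
Log2 fold change of OHT over EtOH (horizontal axis, log2 scale) for the 37 factors, grouped by role and sorted by fold. Points are the values of the authors' deposited table, bars are 95% intervals from the authors' SE, the open point did not pass the threshold, and the dotted line is the median of all genes tested. All 37 points lie below 0, and the bar of Heatr1 alone crosses it.

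The levels in each group can be worked out from a gene's base mean and fold, since both groups have 3 libraries. They are fitted group means, and carry the error of the fold. Summed over the 35 factors the implied levels came to 38789 normalised reads per library in OHT and 67415 in EtOH, so that OHT stood at 57.5% of EtOH. The lowest level among them was that of Dimt1, with 159 normalised reads in OHT and 332 in EtOH. The highest in EtOH was that of Wdr43, with 1810 normalised reads in OHT and 4952 in EtOH. These levels do not separate less RNA per cell from a change in the mix of cells, since the samples are bulk cultures.

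**Figure D2:**
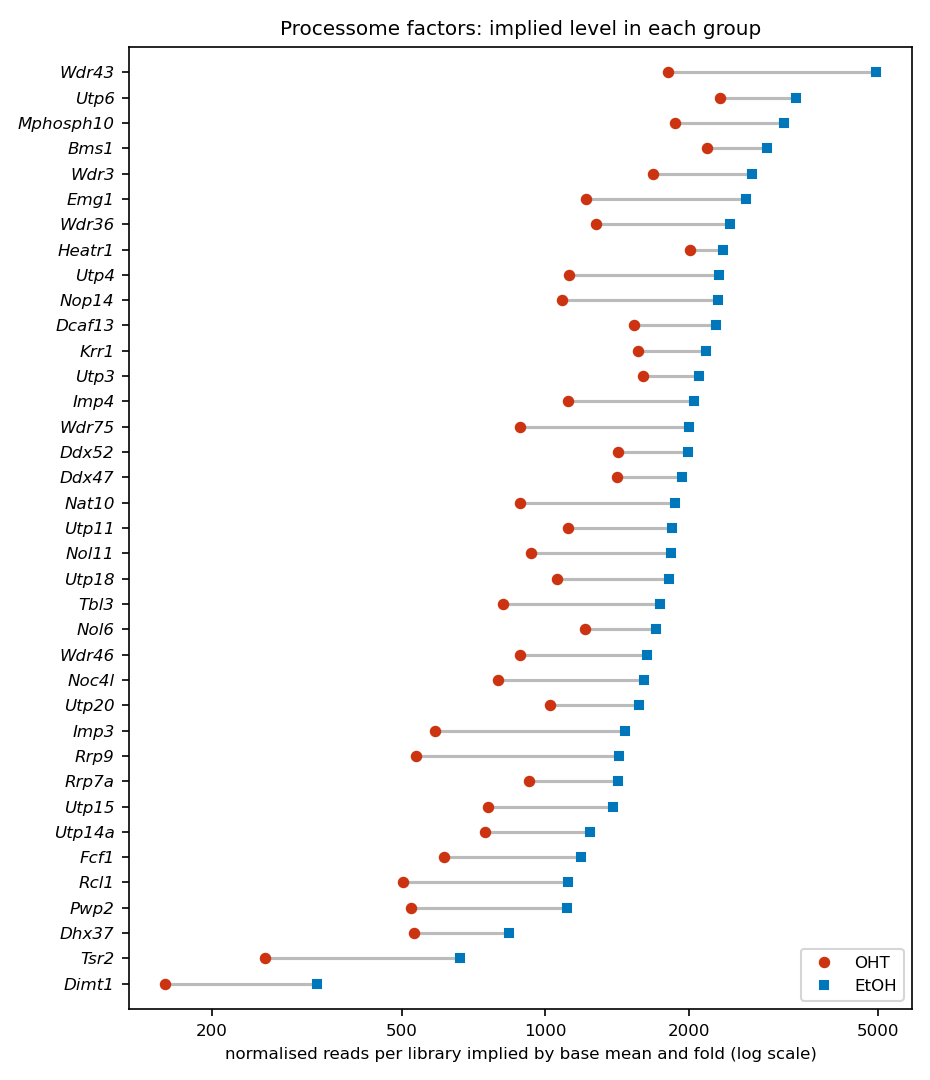
Implied normalised reads per library (horizontal axis, log scale) in OHT (circles) and EtOH (squares) for the 37 factors, sorted by the level in EtOH. The circle is left of the square in every row, with the widest gap for Wdr43 (1810 in OHT and 4952 in EtOH) and the narrowest for Heatr1 (2012 and 2364). The points have no error bar of their own, and the error of each fold is given in the text and the plot of folds by role.

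The UTP-A complex, also called t-UTP, is the first to bind the 5′ external transcribed spacer and is also known for a role in transcription of the ribosomal DNA. Of its 6 subunits measured, 5 fell and 1 did not pass, with a median log2 fold change of -1.01. Beside this count and those of the role groups below, 23.4% of all genes tested were called lower. Wdr43 (ENSMUSG00000041057.10, GRCm38 chromosome 17, 71615895 to 71659031, plus strand), a subunit with WD repeats, fell by 1.45 ± 0.13 (SE, adjusted p = 5.84e-26), as listed in the authors' deposited table, and OHT stood at 36.6% of EtOH (95% interval 30.5 to 43.8%). That was the steepest fall of all the factors. Its partner Wdr75 reached 884 normalised reads in OHT and 1999 in EtOH and fell by 1.18 ± 0.17 in the authors' deposited table. Utp4, the gene mutated in a childhood cirrhosis in humans, reached 1125 normalised reads in OHT and 2316 in EtOH, and fell by 1.04 ± 0.16 in the authors' deposited table. The other two, Nol11 and the WD-repeat subunit Utp15, fell by 0.97 ± 0.15 and 0.87 ± 0.14 in the authors' deposited table.

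Heatr1, the largest UTP-A subunit and built of HEAT repeats, stood apart from these 5. It had 2012 normalised reads in OHT and 2364 in EtOH, and a fold of -0.23 ± 0.17 on the log2 scale (SE, adjusted p = 0.261), as listed in the authors' deposited table. The 95% interval of its fold, -0.57 to 0.10, did not overlap the interval of any other UTP-A subunit, of which the nearest was that of Utp15 at -1.15 to -0.59. On the opposite strand Heatr1 shares 155 exonic bases with Lgals8, a galectin gene that rose by 1.65 ± 0.13 in the authors' deposited table. Whether reads were counted by strand is not stated in the sources at hand, and the part of this overlap in the value of Heatr1 was not tested.

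The UTP-B complex joins next to the U3 particle and holds 4 WD-repeat proteins with tandem propellers, besides Utp6 and Utp18. All 6 subunits fell, with a median log2 fold change of -0.86. Tbl3 and Pwp2 had the steepest falls: Tbl3 fell by 1.09 ± 0.13 (SE, adjusted p = 1.17e-15) and Pwp2 fell by 1.09 ± 0.18 (adjusted p = 1.58e-08), as listed in the authors' deposited table. Tbl3 had 818 normalised reads in OHT and 1743 in EtOH, and Pwp2 had 523 in OHT and 1113 in EtOH. Wdr36 fell by 0.93 ± 0.12, Utp18 fell by 0.78 ± 0.17 and Wdr3 fell by 0.69 ± 0.13 in the authors' deposited table. Utp6, the most abundant of the 6 in base mean, had the smallest fall of the 6. It fell by 0.53 ± 0.17 (adjusted p = 0.00604), as listed in the authors' deposited table, with 2323 normalised reads in OHT and 3352 in EtOH. The intervals of all 6 subunits overlapped one another, from a lower end of -1.45 for Pwp2 to an upper end of -0.19 for Utp6.

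Rrp9 is the protein specific to the U3 snoRNA particle, and the MPP10 complex of Mphosph10, Imp3 and Imp4 holds U3 on the precursor. Rrp9 (ENSMUSG00000041506.15, GRCm38 chromosome 9, 106475963 to 106485424, plus strand) had 536 normalised reads in OHT and 1429 in EtOH and fell by 1.42 ± 0.12 (SE, adjusted p = 1.49e-29), as listed in the authors' deposited table. That was the smallest adjusted p among the factors. Imp3 had 587 normalised reads in OHT and 1474 in EtOH and fell by 1.33 ± 0.18 (adjusted p = 8.88e-13), as listed in the authors' deposited table. Imp4 and Mphosph10 fell less, by 0.88 ± 0.11 and 0.76 ± 0.14 in the authors' deposited table. Utp3, known as Sas10 in yeast and often grouped with this complex, fell by 0.39 ± 0.15 (adjusted p = 0.0188), as listed in the authors' deposited table. Rrp9 and Imp3 had intervals that ended at -1.18 and -0.98, below the lower end of that of Utp3 at -0.68. Imp3 is uncertain, because 4933427G23Rik holds a copy of 567 of its transcript bases at 95.8% identity. Any effect of this copy on the value of Imp3 was not tested.

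The enzymes of the early particle and their direct partners form the largest group, and all 10 fell, with a median log2 fold change of -0.84. Among them are 3 enzymes that modify the ribosomal RNA. Emg1, which methylates a pseudouridine of the small-subunit RNA, fell by 1.12 ± 0.13 (SE, adjusted p = 1.73e-17), as listed in the authors' deposited table, with 1219.7 normalised reads in OHT and 2644 in EtOH. Nat10, the cytidine acetyltransferase, fell by 1.08 ± 0.14 (adjusted p = 1.04e-12), as listed in the authors' deposited table, with 886 normalised reads in OHT and 1873 in EtOH. Dimt1, which dimethylates adenosines near the 3′ end of the small-subunit RNA, fell by 1.06 ± 0.23 (adjusted p = 2.66e-05), as listed in the authors' deposited table. It has the lowest base mean and the widest SE of the factors. It is uncertain, since it shares 1229 exonic bases with Kif2a on the opposite strand, a motor gene at -0.12 ± 0.16 (adjusted p = 0.563), as listed in the authors' deposited table, and 942 bases at 98.8% identity with the pseudogene Gm12418. The effect of either on the value of Dimt1 was not tested.

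Bms1 and Rcl1 are known from yeast as a GTPase and the protein it delivers to the particle, and their transcripts moved unequally. Rcl1 had 505 normalised reads in OHT and 1117 in EtOH and fell by 1.15 ± 0.17 (SE, adjusted p = 7.21e-11), as listed in the authors' deposited table. Bms1 had 2185 normalised reads in OHT and 2919 in EtOH and fell by 0.42 ± 0.15 (adjusted p = 0.0142), as listed in the authors' deposited table. Their 95% intervals, -1.47 to -0.82 for Rcl1 and -0.71 to -0.12 for Bms1, did not overlap. Among the helicases, Dhx37, the DEAH-box enzyme that works with Utp14a, fell by 0.67 ± 0.17 and Utp14a by 0.73 ± 0.15 in the authors' deposited table. The DEAD-box helicases Ddx52 and Ddx47 fell by 0.48 ± 0.13 and 0.45 ± 0.11 in the authors' deposited table. Fcf1, the PIN-domain endonuclease known in yeast as Utp24, fell by 0.95 ± 0.20 in the authors' deposited table. It is uncertain because the pseudogene Gm11221 copies 597 of its transcript bases at 98.0% identity, though an effect on its value was not tested.

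All 9 scaffold and later joining factors fell, with a median log2 fold change of -0.62. Nop14 and Noc4l, which bind each other, had the steepest falls of the group: Nop14 fell by 1.09 ± 0.16 (SE, adjusted p = 2.93e-10) and Noc4l fell by 1.01 ± 0.19 (adjusted p = 5.02e-07), as listed in the authors' deposited table. Nop14 had 1086 normalised reads in OHT and 2308 in EtOH, and Noc4l had 797 in OHT and 1610 in EtOH. Wdr46, known in yeast as Utp7, fell by 0.89 ± 0.19 in the authors' deposited table, and Utp11 by 0.72 ± 0.18. Utp20, the giant HEAT-repeat protein, fell by 0.62 ± 0.21 in the authors' deposited table, Rrp7a by 0.61 ± 0.17 and Dcaf13, the counterpart of yeast Sof1, by 0.57 ± 0.15. Nol6, which in yeast as Utp22 forms a complex with Rrp7, fell by 0.50 ± 0.19 (adjusted p = 0.0162), as listed in the authors' deposited table. Krr1, a KH-domain protein, had the smallest fall of the group: it fell by 0.47 ± 0.11 (adjusted p = 0.000114), as listed in the authors' deposited table. Rrp7a is uncertain, because the pseudogene Gm3436 copies 840 of its bases at 98.2% identity, and the effect of this on its value was not tested.

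Tsr2 is a chaperone of the ribosomal protein RPS26 and not a part of the processome particle itself. It had 259 normalised reads in OHT and 662 in EtOH and fell by 1.36 ± 0.15 (SE, adjusted p = 2.66e-18), as listed in the authors' deposited table. Its fall was the third steepest of the factors. Without Tsr2 and Dimt1 32 of 33 factors fell and the median was -0.87.

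The error was larger than counting alone would give. The median SE of the factors in the authors' deposited table was 0.15, whereas counting of reads alone would give a median of 0.032 on the same scale. The deposited SE was between 2.56 and 7.95 times the counting error. The folds tended to be less negative in factors with a higher base mean and in those with longer transcripts. Over the 35 factors the fold had a Pearson r of 0.38 and a Spearman rho of 0.43 with the log10 base mean, and 0.37 and 0.36 with the log10 transcript length. These are descriptions across genes measured in the same 6 libraries, and base mean includes the OHT level itself. The base mean is not divided by transcript length here, so these trends are not independent of each other. A trend of the fold with the level per length was not computed.

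Transcript levels per length differed widely among factors that join 1 particle. Divided by the longest coding transcript, the base mean was highest for Emg1 at 1868 normalised reads per kilobase, followed by Dcaf13 at 1233 and Fcf1 at 1205. It was lowest for Dimt1 at 119.8 per kilobase and Tsr2 at 121 per kilobase. The order depends on the gene model. With the median transcript length the value was over 1.5 times higher for 11 of the 37 factors, and Wdr75 came first at 3079.8 per kilobase, followed by Emg1 at 2731, Nat10 at 1789 and Utp20 at 1656, while Dcaf13 moved to rank 7.

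The factors were set beside other genes of the pathway, listed by role. Over all genes tested, 23.4% were called lower and 25.5% higher. Of 23 other processome genes tested, 20 fell and 0 rose, with a median log2 fold change of -0.82. The box C/D core proteins Nop58 and Nop56, which bind U3, had the steepest falls: Nop58 fell by 1.54 ± 0.21 (SE, adjusted p = 1.61e-12) and Nop56 fell by 1.44 ± 0.13 (adjusted p = 2.47e-28), as listed in the authors' deposited table, and Nop58 was also the most abundant. At the other end of this list Utp23 and Rrp36 had folds of -0.07 ± 0.16 (adjusted p = 0.739) and -0.20 ± 0.16 (adjusted p = 0.307), as listed in the authors' deposited table. Of 46 large-subunit assembly factors 44 fell and 0 rose, with a median of -0.95. The nucleolar proteins Npm1 (-1.86 ± 0.20) and Npm3 (-1.79 ± 0.12) had the lowest folds, Ncl was the most abundant (-1.33 ± 0.19), and Mdn1 (-0.22 ± 0.26) and Ddx24 (-0.19 ± 0.14) did not pass in the authors' deposited table.

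The genes listed as late pre-40S factors showed both directions. Cinp and Lsm6 were counted on this list, and their place in late pre-40S assembly was not checked here. Without Riok2, 10 of 13 fell, 2 rose and 1 did not pass, with a median log2 fold change of -0.63. The shares over all genes tested were 23.4% lower and 25.5% higher. Nob1, the endonuclease of the last cut, fell by 1.40 ± 0.13 and Cinp by 0.91 ± 0.15 in the authors' deposited table. The casein kinases Csnk1e and Csnk1d (the second picked after its values were seen), which phosphorylate late precursors and have many other substrates, rose by 1.23 ± 0.15 and 0.26 ± 0.10 in the authors' deposited table. Riok3, the most abundant of this list, had 0.35 ± 0.16 (adjusted p = 0.0582), as listed in the authors' deposited table. Rrp12 is on this list and on that of other processome genes. No test of the difference between these lists was made.

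**Figure D3:**
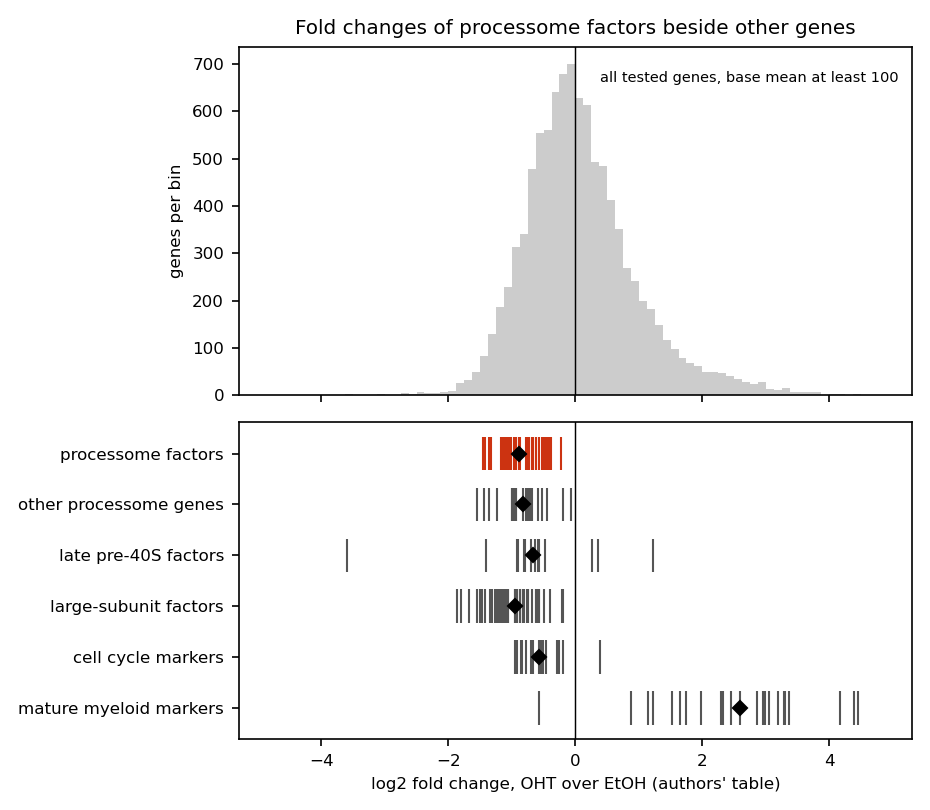
Log2 fold change of OHT over EtOH (horizontal axis, log2 scale) in the authors' deposited table. Top, number of tested genes at a base mean of 100 or more per bin. Bottom, each line is a gene and each diamond the median of a list, with the 37 processome factors in the top row. The processome median is -0.88 and that of the large-subunit factors -0.95. It is -0.66 for the 14 genes listed as late pre-40S factors, with Riok2 included, and 2.59 for the mature myeloid markers.

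Cell cycle genes and myeloid markers moved in the same comparison, in which 23.4% of all genes tested were called lower and 25.5% higher. Of 15 cell cycle genes 11 fell and 0 rose, with a median log2 fold change of -0.57. The helicase subunit Mcm6 fell by 0.95 ± 0.09 and the licensing factor Cdc6 by 0.91 ± 0.16, while Mki67, the most abundant, had 0.38 ± 0.19 (adjusted p = 0.0816) and Ccne2 -0.19 ± 0.14 (adjusted p = 0.274), as listed in the authors' deposited table. Of 24 mature granulocyte and monocyte markers listed, Ly6g had no row in the authors' deposited table. Of the 23 tested 22 rose and 1 fell, with a median of 2.59, and 0 of these markers had a base mean of 0. Their summed implied level was 1089596 normalised reads per library in OHT and 257857 in EtOH. Of 14 leukaemic progenitor markers 8 fell and 2 rose, with a median of -0.49. The part of these shifts in the falls of the processome factors was not tested.

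The promoters of the factors were read from RefSeq on GRCm38.p6, in windows of 250 bases before to 50 bases after the start of transcription. A window was at hand for 30 of the 37 genes. Searched on both strands, the E-box CACGTG, the site bound by MYC with MAX, was found in 9 of 30 windows (30.0%). It was found in 10.5% of the 9824 windows of tested genes at a base mean of 100 or more. These windows come from 7680 genes, so some genes count more than 1 time, whereas each factor has 1 window. The ETS motif CCGGAAG was found in 12 (40% against 19.5%), the CAAT box CCAAT in 16 (53.3% against 38.2%) and GCATGC, the core of the NRF1 motif, in 5 (16.7% against 10.4%). In a shorter window of 100 bases before to 50 after the start, the CAAT box (26.7% against 25.5%) and the NRF1 core (6.67% against 6.49%) were at shares close to those of the other genes. The CG-rich palindrome TCGCGA and the TATA box TATAAA were found in 1 window each (3.33% against 5.27% and 6.55%). The whole promoter table holds 32851 windows from 27025 genes. In it the shares were 7.15% for the E-box, 8.86% for the ETS motif and 37.4% for the CAAT box. They were 7.93% for the NRF1 core, 2.50% for the CG-rich palindrome and 13.6% for the TATA box. None of the 6 motifs contains another. GC content had a median of 56.7% in the factors and 61.0% in windows of tested genes at a base mean of 100 or more.

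**Figure D4:**
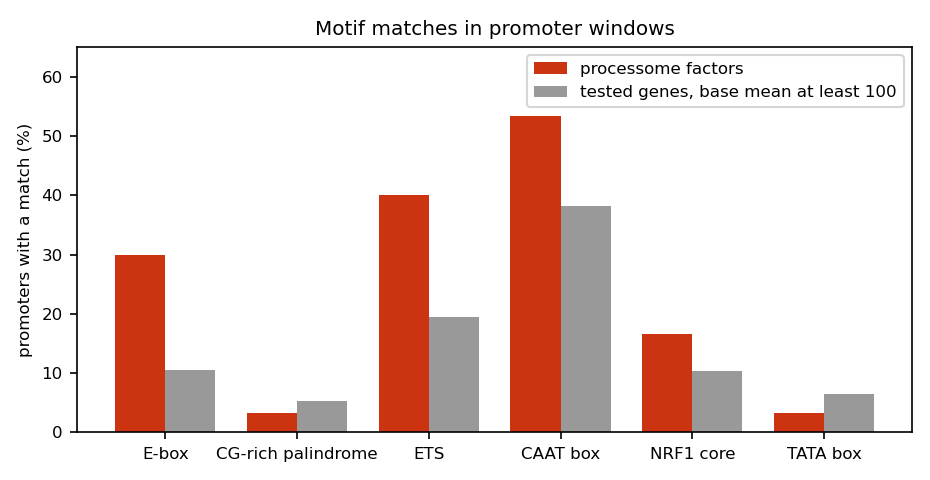
Share of promoter windows with a match to each motif (vertical axis, percent, from 0), for the 30 processome factors with a window (left bars) and for the 9824 windows of tested genes at a base mean of 100 or more (right bars). The 9824 windows come from 7680 genes. The bars for the E-box are at 30.0% and 10.5% and those for the ETS motif at 40% and 19.5%.

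The E-box windows are shown because, of the 6 motifs, this one had the greatest ratio between the factors and tested genes at a base mean of 100 or more; over the whole promoter table the ratio was greater for the ETS motif. Each is 30 bases, read 5′ to 3′ on the strand of the gene, with the E-box in capitals, ordered from the steepest fall to the smallest. The E-box of Utp20 lies too near the edge of its window and is not shown.
Wdr43: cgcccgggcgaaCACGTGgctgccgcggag
Tsr2: ctgcctgggagcCACGTGatctaaacggat
Utp4: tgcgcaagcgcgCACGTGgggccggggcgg
Nol11: cttgagcgttcgCACGTGgtctagactcca
Wdr46: aagggagtttcgCACGTGgatcgttgttcg
Imp4: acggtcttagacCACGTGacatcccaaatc
Utp18: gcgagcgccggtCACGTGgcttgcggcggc
Rrp7a: gtgcctgtgcacCACGTGtcctggaactgg

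These 8 sites lie at chr17:71616220-71616249, chrX:151096511-151096540, chr8:106893643-106893672, chr11:107189407-107189436, chr17:33940699-33940728, chr1:34439696-34439725, chr11:93885769-93885798 and chr15:83122992-83123021, in the order of the lines above. Wdr43, Utp4, Wdr46 and Imp4 are on the plus strand and the others on the minus strand. The E-box begins at base 18 after the start in Wdr43 and at base 16 in Tsr2 and Utp4, and it begins 12, 20 and 43 bases before the start in Wdr46, Utp18 and Nol11. In Imp4 and Rrp7a it lies farther off, 121 and 208 bases before the start. These distances are from the RefSeq start of each window and depend on the annotation. The gene model given above for Wdr43 starts at 71615895, farther upstream of its site. The falls were alike in size with and without the E-box, without a test: the median log2 fold change was -0.89 in the 9 genes with it and -0.87 in the 21 without. The 12 genes with the ETS motif had a median of -0.72, and the 18 without it -1.04.

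For the ends of the range, the 250 bases before the start are shown for the 2 steepest falls and the smallest fall among genes whose upstream window holds no annotated exon of the gene itself, with matches to any of the 6 motifs in capitals. Tsr2 (chrX:151096544-151096793, minus strand) and Wdr75 (chr1:45794916-45795165, plus strand) each hold 1 CAAT box, on the other strand, and Utp3 (chr5:88554212-88554461, plus strand) holds 2 ETS motifs.
Tsr2: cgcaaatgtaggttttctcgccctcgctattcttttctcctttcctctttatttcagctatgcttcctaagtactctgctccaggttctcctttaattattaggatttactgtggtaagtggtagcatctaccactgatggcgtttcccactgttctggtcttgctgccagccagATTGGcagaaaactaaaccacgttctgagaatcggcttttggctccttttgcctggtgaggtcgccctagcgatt
Wdr75: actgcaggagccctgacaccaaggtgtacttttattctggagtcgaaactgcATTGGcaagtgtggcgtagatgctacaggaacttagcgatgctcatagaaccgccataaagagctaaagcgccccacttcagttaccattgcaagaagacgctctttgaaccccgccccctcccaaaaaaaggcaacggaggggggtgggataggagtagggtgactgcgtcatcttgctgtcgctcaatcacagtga
Utp3: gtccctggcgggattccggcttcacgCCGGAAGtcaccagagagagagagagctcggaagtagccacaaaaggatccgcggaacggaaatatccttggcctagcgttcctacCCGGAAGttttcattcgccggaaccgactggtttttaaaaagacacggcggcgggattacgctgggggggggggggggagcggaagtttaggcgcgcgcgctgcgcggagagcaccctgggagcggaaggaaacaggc

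The factors are spread over 18 chromosomes, and many sit head to head with another gene. A protein-coding gene on the opposite strand starts within 1000 bases upstream of 10 of the 37 factors (27.0%), against 1264 of 12531 tested protein-coding genes (10.1%) in the GENCODE M21 annotation. The distances were 33 to 339 bases. Of these 10 neighbours 7 fell, 0 rose and 3 did not pass, where 23.4% of all genes tested were called lower. Their median log2 fold change was -0.58, beside -0.89 for their processome partners. Emg1 and Phb2, a prohibitin of the inner mitochondrial membrane that starts 158 bases away, fell by 1.12 ± 0.13 and 1.13 ± 0.11 in the authors' deposited table. Wdr46 fell by 0.89 ± 0.19 and its neighbour Pfdn6, a prefoldin subunit gene, fell by 1.06 ± 0.17 in the authors' deposited table. Noc4l fell by 1.01 ± 0.19 and its neighbour Ddx51, itself a large-subunit factor, fell by 0.74 ± 0.19 in the authors' deposited table. The pairs were not all alike. Utp15 fell while Ankra2, which starts 33 bases away, had 0.10 ± 0.15 (adjusted p = 0.609), and Utp18 fell while Mbtd1 had -0.09 ± 0.15 (adjusted p = 0.676), as listed in the authors' deposited table.

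**Figure D5:**
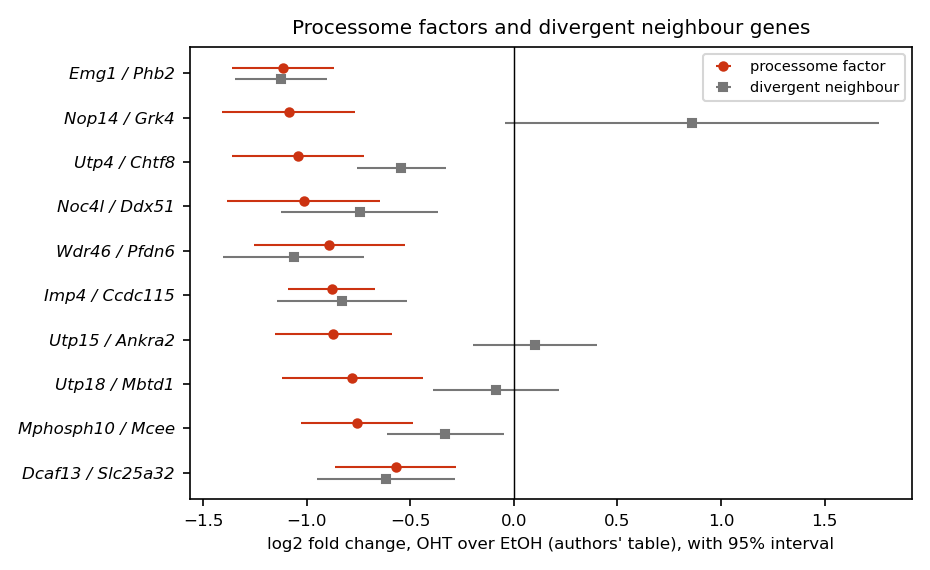
Log2 fold change of OHT over EtOH (horizontal axis, log2 scale) for 10 processome factors (circles) and their divergent neighbour genes (squares), with 95% intervals from the SE of the authors' deposited table. The neighbours Ankra2 (0.10) and Mbtd1 (-0.09) lie near 0, and Grk4 (0.86), with a base mean of 24.1, has the widest bar.

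Overlapping genes limit some of the values. In the same annotation 16 of the 37 factors share exonic bases with a gene on the opposite strand, and 12 share at least 100 bases. The partners that share most bases with Tbl3, Wdr3 and Tsr2 had low base means of 33.8 for Noxo1, 2.10 for Spag17 and 2.81 for Fgd1 in the authors' deposited table. Those of Krr1, Emg1 and Rrp7a were more abundant, with base means of 4362 for Glipr1, 2129 for Lpcat3 and 564 for Serhl in the authors' deposited table, and had folds of 0.14 ± 0.13 (adjusted p = 0.405), 0.41 ± 0.21 (adjusted p = 0.102) and -0.28 ± 0.15 (adjusted p = 0.120). Wdr43 carries snoRNA genes in its introns. Of these, Snord53 had a base mean of 3.96 and a fold of 0.37 ± 0.73 (adjusted p = 0.704), as listed in the authors' deposited table, and Snord92 a base mean of 0.24. Whether such few reads come from the snoRNAs or from introns of Wdr43 was not tested.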

How the data were processed

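Per the labels' protocols, total RNA came from silica columns and went into TruSeq libraries. The submitters' processing notes name the mm10 build and the tools DESeq2, DESeq, HTSeq 0.9.1, STAR 2.7.2b and Trimmomatic 0.38.0. Counting options and annotation are not stated in the sources at hand. The authors deposited per gene a base mean (a normalised read signal), a log2 fold change with its SE, a Wald score, and a p-value with its adjusted p-value. These identities were checked: the score equals fold over SE within 7.56e-08, and the adjusted p equals a Benjamini-Hochberg adjustment over 13814 genes within 2.33e-07. No SE exceeds 0.747, so the deposited log2 folds appear pulled towards 0 by a prior.

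Calls are the authors' adjusted p-values under 0.05. Group levels were computed from base mean and fold for 3 and 3 libraries, intervals at 95% from the SE, and counting errors from the size factors. Near-identical copies were sought with blastn 2.17.0+ (at least 95% identity over 200 bases). Copies were found for 4 factors, and none of these copies has a row of its name in the authors' deposited table. Other steps used Python 3.11.15, pandas 2.3.3 and scipy 1.17.1, and the calls were tested on simulated data. Named genes are all factors, Riok2, and the 2 lowest, 2 highest and most abundant genes of each comparison list; genes named as overlapping, neighbouring or marker examples, and Csnk1d, were picked after their values were seen. The factors and lists were chosen with earlier results of these data known. Alternatives covered the threshold, the adjustment, filters, centring, the prior, the promoter window and the transcript length.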

Additional observations from a re-analysis of the deposited data

How the results depend on the processing

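Of the 8 other ways of making calls that were tried, 6 leave the folds as deposited and the centrings shift all genes alike, so they bear on the counts and not on the direction. Shares of all genes called lower under the same rule are given in brackets. The count of 34 lower (23.4%) became 31 at a threshold of 0.01 (19.1%) and 29 with the Benjamini-Yekutieli adjustment (17.7%). It stayed at 34 among genes with a base mean of 100 or more (30.6% of these) and with an SE of at most 0.5 (29.2% of these). With both centrings it was also 34 (25.2% and 22.6%). It fell to 21 with the Bonferroni adjustment (9.67%) and to 15 when tested against a log2 change of 0.5 (6.67%). The factors lost at 0.01 were Bms1, Nol6 and Utp3. The median fold lay between -0.93 and -0.86 under the alternatives that keep a median, and was -0.90 with the prior removed. The weighted mean was -0.85 and the log2 ratio of summed levels -0.80. The level per length had a median of 488 per kilobase with the longest transcript and 619 with the median one. In a window of 100 bases before to 50 after the start, the shares of factors and of tested genes at a base mean of 100 or more with a match were 23.3% against 6.66% for the E-box, 36.7% against 15.2% for the ETS motif, 26.7% against 25.5% for the CAAT box, 6.67% against 6.49% for the NRF1 core and 0% against 2.84% for the TATA box. The higher shares of the CAAT box and the NRF1 core in the longer window were thus not seen in the shorter one. No paired analysis was possible because the file holds no values per sample, and leaving out replicates could not be run for the same reason.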
